A study of Arabidopsis thaliana with 12 samples.

Results

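The comparison set the transcriptome of root tips after 10 h of MIR165A induction against that of mock-treated tips. It used 6 of the 12 arrays of the series, 3 from seedlings kept for 10 h on ß-estradiol and 3 from seedlings on mock plates, and all 22746 of 22810 probe sets that are not controls. Every seedling in both groups carried the pCRE1_XVE::MIR165A transgene in the Col-0 background. XVE is a transcription factor that ß-estradiol activates, and here the CRE1 promoter, active in the vascular core of the root (the stele), drove it. The 10 h seedlings lay on plates with 5 µM ß-estradiol in ethanol, and the mock seedlings, labelled 0 h, on plates with the same amount of ethanol only. All were collected at 4 days post-germination, give or take 4.5 h, and each array held RNA of about 200 primary root tips cut to 0.5 mm. The remaining 6 arrays came from seedlings of the same line after 6 h or 24 h on ß-estradiol. No ß-estradiol-treated seedlings without the transgene are among the groups, so induction, the ß-estradiol and the hours spent on it cannot be told apart.

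MiR165 pairs with the mRNAs of class III HD-ZIP transcription factors and directs their cleavage. These factors pattern the vascular cylinder, where their dose sets which kind of xylem forms. In the root tip, cells divide in the meristem and then leave it to elongate and differentiate, and in the epidermis some of them grow root hairs, for which walls are loosened by expansins, cross-linked by class III peroxidases and remodelled by xyloglucan enzymes. Dividing cells make many ribosomes and histones. In pieces of whole tissue, fewer cells of a type and less RNA per cell cannot be told apart.

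The microarrays gave 1 log2 signal for each probe set, and a difference of 1 is a 2-fold change. Probe sets were called where limma's adjusted p was under 0.05 over all 22746. Array medians lay between 5.97 and 6.13. Pairs of arrays correlated at 0.996 to 0.997 within the mock group, at 0.997 within the 10 h group and at 0.990 to 0.994 across them. The 3 samples of a group are labelled biological replicates, and their number limits the precision. The signal of the actin controls' 3' probe set exceeded that of the 5' one by 3.68 ± 0.03 (SD, n = 3) in mock tips and 3.73 ± 0.03 (SD, n = 3) at 10 h, with an exact permutation p = 0.2. The spiked-in hybridisation controls were brighter on mock replicate 1, at a mean of 10.3, than on the other 11 arrays, at 9.32 to 9.78. None of the 10 root tip markers chosen to check the tissue had a named probe set. Of other meristem genes, the mock mean was 6.87 for BBM, an AP2 factor of the meristem, and 6.10 for JKD, a zinc finger factor of the ground tissue.

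Class III peroxidase, root hair and dehydration genes were among the rises at 10 h, and genes of ribosome production, some histones and a few metabolic enzymes were among the falls. In all, 1705 probe sets passed, which is 7.5% of those tested. Of these, 1070 were higher (4.7%) and 635 lower (2.79%). Among the 13513 probe sets with 1 gene name, 550 were higher (4.07%) and 356 lower (2.63%), and among the 9233 others 520 (5.63%) and 279 (3.02%). The 4.07% and 2.63% are the background for the count of calls in each gene list. The higher share of the calls was 62.8%, and it was 52.9% after centring every array on its median, with 930 higher and 828 lower, and 54.5% after a filter on dim probe sets.

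The 2 directions differed in size and in signal level. The median difference was 0.63 over the called rises and -0.41 over the called falls, against -0.01 over all probe sets. At least a 2-fold change was found for 222 of the rises and 16 of the falls, and at least a 4-fold change for 27 and 1. The falls lay at brighter probe sets, with a median level of 8.16 against 6.84 for the rises and 6.09 for all probe sets. Among the 6144 probe sets under 4, 1.01% were higher and 0.163% lower. Between 4 and 6 the shares were 6.3% and 1.67%, whereas between 8 and 10 they were 5.69% and 5.81%. Without single arrays the number of calls fell to between 875 and 1420. By unadjusted p under 0.05, 4691 probe sets differed.

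**Figure D1:**
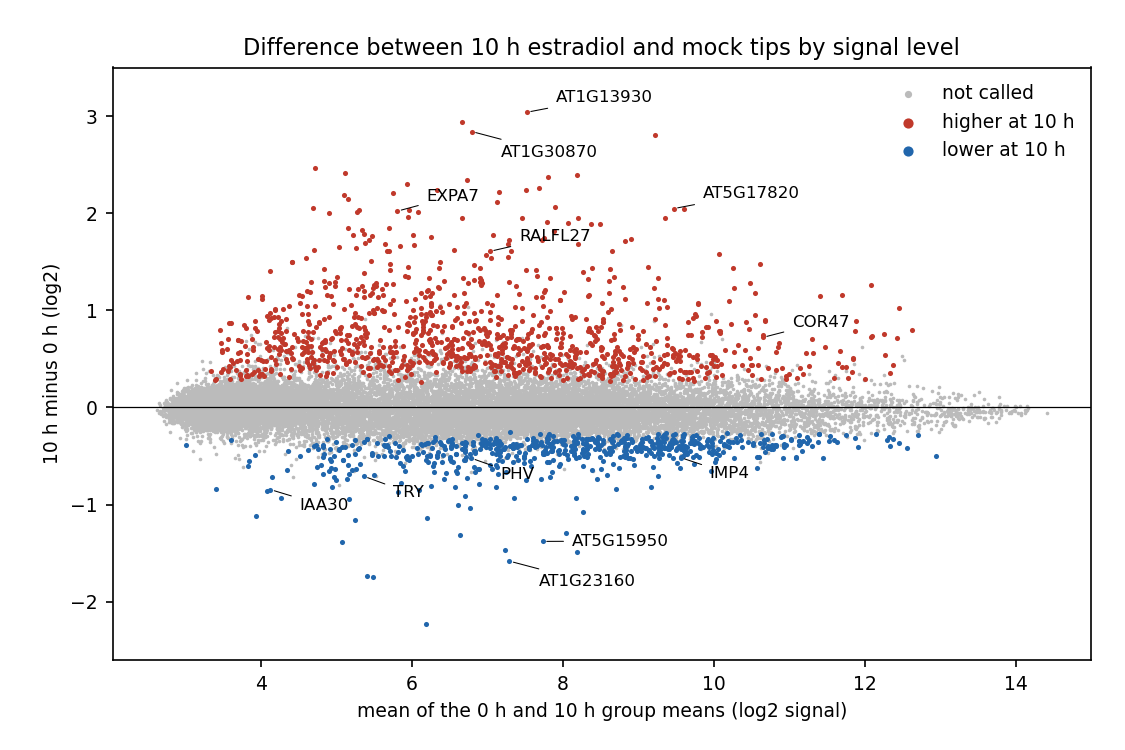
Each point is 1 of 22746 probe sets, with the mean of the 2 group means on the x axis (log2 signal) and the 10 h minus 0 h difference on the y axis (log2), red where called higher and blue where called lower. Rises reach 3.04 at AT1G13930, whereas most falls lie within 1 of 0 and to the right, at brighter signals.

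PHV, a class III HD-ZIP gene and a target of miR165, was the 1 of 5 members of its family with a named probe set. Its mock arrays read 6.99, 7.16 and 7.0 and its 10 h arrays 6.43, 6.47 and 6.68. All 10 h arrays lay below all mock arrays. Of the 1705 called probe sets, 1701 had groups that did not overlap, so such separation adds little to a call, here or below. PHV fell by 0.52 (SE 0.10, limma adjusted p = 0.00631), a 1.44-fold lower signal. The exact two-sided permutation test gave p = 0.1, the smallest that 3 arrays against 3 allow, and this holds for every gene below whose groups do not overlap. Of the microRNA machinery, the zinc finger gene SE read -0.15 (limma adjusted p = 0.575) and the Argonaute gene AGO7 -0.16 (limma adjusted p = 0.428), neither called. The ATH1 values hold no measure of the mature miR165.

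Of 33 genes listed for the root hair and its cells, 4 had a named probe set. Of these 4, 3 rose at 10 h, beside 4.07% of all named probe sets, with a median difference of 1.64. AT1G30870, the class III peroxidase PER7 of root hair cells, read 5.56, 4.96 and 5.61 on the mock arrays and 8.08, 8.04 and 8.53 on the 10 h arrays. The gap between the groups was wider than the range within either. AT1G30870 rose 7.16-fold (2.84, SE 0.28, limma adjusted p = 7.56e-05). The root hair expansin EXPA7 read 4.67, 4.70 and 5.04 in mock tips and 6.62, 6.82 and 7.02 at 10 h, a rise of 2.02 (SE 0.26, limma adjusted p = 0.0004). Its partner EXPA18 read 4.81, 4.93 and 4.89 against 6.04, 6.07 and 6.30, a rise of 1.26 (SE 0.20, limma adjusted p = 0.00186). For both expansins no 10 h array came within 1 log2 unit of a mock array. The fourth gene, the xyloglucan enzyme XTH26, had a mean of 3.64 in mock tips and 3.70 at 10 h, a dim signal in both groups (limma adjusted p = 0.849).

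Other genes with a known link to the hair were chosen after their values were seen. AT2G41970, the receptor-like cytoplasmic kinase MARIS of hair integrity, read 5.27, 5.22 and 5.65 in mock tips and 7.17, 7.03 and 7.21 at 10 h. It rose by 1.76 (SE 0.20, limma adjusted p = 0.000211), and its groups were far apart. The receptor kinase gene FER rose by 0.46 (SE 0.10, limma adjusted p = 0.00882). Of 9 epidermal patterning genes, 1 had a named probe set, TRY, an R3 MYB repressor that acts on hair fate. It read 5.80, 5.58 and 5.77 in mock tips and 5.16, 4.95 and 4.93 at 10 h. TRY fell by 0.71 (SE 0.10, limma adjusted p = 0.000694), with no overlap.

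Class III peroxidases, secreted enzymes that make and use hydrogen peroxide at the wall, were looked up by locus, a list added once members of the family had turned up among the called genes. Of 55 measured, 14 rose, 2 fell and 39 were not called, and the median was 0.08. The rises made up 25.5% of the family, with 4.07% of all named probe sets higher. Members seen before the list was added are part of this count. The earlier peroxidase list, matched by symbol, had 5 measured genes, of which 1 rose, with a median of -0.03. AT3G49960 (PER35) read 4.07, 3.69 and 4.49 in mock tips and 6.15, 6.24 and 6.31 at 10 h, a 4.43-fold rise. AT5G17820 (PER57), already bright in mock tips at 8.16, 8.42 and 8.76, reached 10.52, 10.31 and 10.65, a 4.13-fold rise. The 10 h arrays of each of these genes sat close together, above a wider mock group.

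Further peroxidase rises were those of AT4G26010, PER44 (1.85, SE 0.19, limma adjusted p = 9.68e-05), AT5G64100 (1.71) and AT3G01190 (1.26). AT3G01190 had a mean of 11.45 in mock tips. AT5G66390 (PER72), listed with the xylem genes, read 3.81, 3.56 and 3.60 against 4.18, 4.36 and 5.14, a rise of 0.90 (SE 0.22, limma adjusted p = 0.0241). Its 10 h replicate 3 stood above the other 5 arrays, and the call ended without it and without mock replicate 2 or 3 (limma adjusted p up to 0.0931). Of the 2 falls, AT2G43480 fell by 0.71 (limma adjusted p = 0.0019) and AT2G22420 by 0.33. With the filter on dim probe sets 10 of the family were called higher. The filter keeps probe sets with a mean of at least 5, so it removed AT3G49960, AT4G26010 and AT5G66390 whatever their difference.

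**Figure D2:**
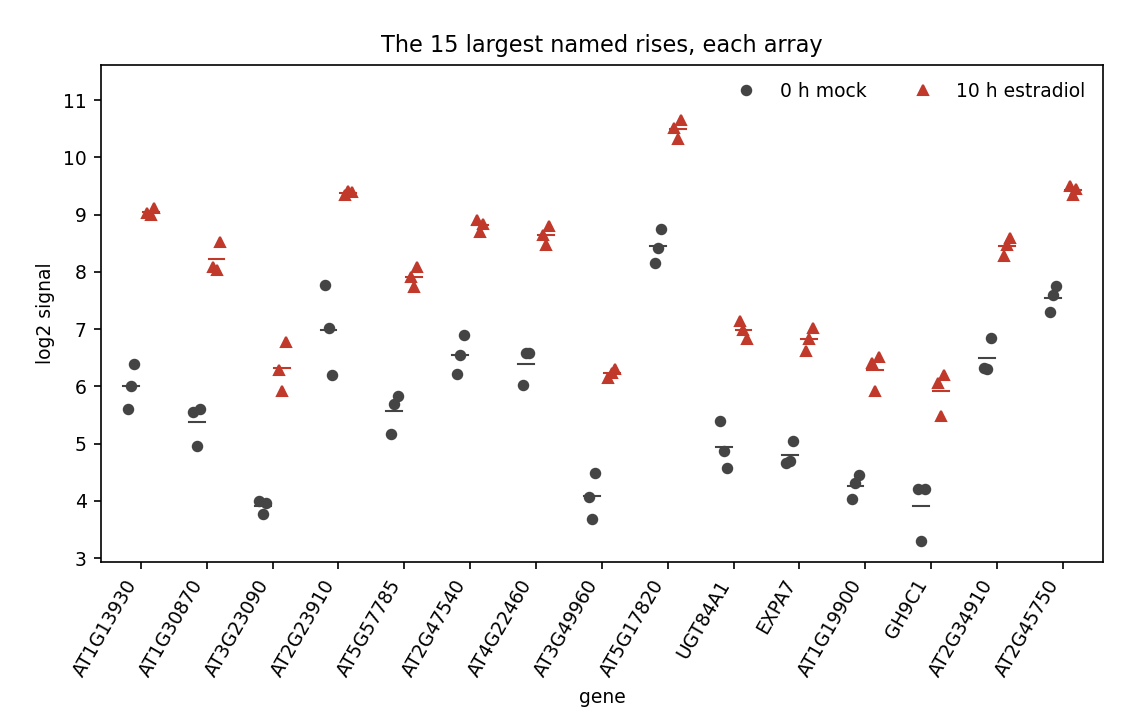
Log2 signal (y axis) of the 15 largest named rises (x axis), with 1 point per array, grey circles for 0 h mock, red triangles for 10 h and a line at each group's mean. The 15 genes were chosen so that the 3 triangles lie above the 3 circles. Differences run from 1.89 for AT2G45750 to 3.04 for AT1G13930. Heights of different genes are not comparable.

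Enzymes that loosen or build the wall moved in both directions. Of 19 expansin genes, which loosen walls, 3 rose (15.8%, against 4.07% of named probe sets) and 2 fell (10.5%, against 2.63%), with a median of 0.02 that turned to -0.01 after median centring. EXPB1 joined the 2 root hair expansins with a rise of 0.54 (limma adjusted p = 0.00349). The expansin-like genes EXLA2 and EXLA1 each fell by 0.56, with limma adjusted p = 0.00368 and 0.028. EXLA2 read 7.66, 7.68 and 7.52 in mock tips and 7.15, 6.93 and 7.11 at 10 h, so that its groups lay apart. The call on EXLA1 ended when replicate 1 or replicate 2 of either group was left out (limma adjusted p up to 0.109).

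Of 10 xyloglucan endotransglucosylase genes, whose enzymes cut and rejoin xyloglucan chains, 3 rose and none fell, with a median of 0.23. The rises made up 30%, against 4.07% of named probe sets. XTH18 read 7.99, 8.10 and 7.91 in mock tips and 9.23, 9.31 and 9.49 at 10 h, a 2.54-fold rise (limma adjusted p = 0.000526). XTH21 rose by 0.80 (limma adjusted p = 0.0097) and EXGT-A3 by 0.41 (limma adjusted p = 0.00832). Among 15 GH9 cellulases, 2 rose (13.3%, against 4.07% of named probe sets) and 1 fell (6.67%, against 2.63%). GH9C1, a cellulase with a carbohydrate-binding module, read 4.21, 3.31 and 4.21 against 6.05, 5.49 and 6.19, a 4-fold rise (limma adjusted p = 0.00358). Replicate 2 was the lowest array of GH9C1 in both groups. GH9B6 fell by 0.73 (SE 0.14, limma adjusted p = 0.00597). GH9B13 rose by 0.52 (limma adjusted p = 0.0356), a call that ended under median centring (limma adjusted p = 0.0519) and when mock replicate 1 or 2 or 10 h replicate 2 or 3 was left out (up to 0.138).

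TRICHOME BIREFRINGENCE-LIKE genes encode wall polysaccharide acetyltransferases and their relatives. Of 25 probe sets for 24 of these genes, 6 were higher (24%, against 4.07% of named probe sets). A single probe set was lower (4%, near the 2.63% of named probe sets), and the median was 0.10. TBL38 read 5.08, 5.05 and 5.28 in mock tips and 6.85, 6.74 and 7.14 at 10 h, a 3.43-fold rise (limma adjusted p = 0.000983). TBL21 rose by 1.56 (SE 0.20), and TBL19 by 1.01 (SE 0.13). TBL36 went the other way and fell by 0.74 (SE 0.09, limma adjusted p = 0.000275). AT2G31110 had 2 probe sets that disagreed: one rose by 1.16 (limma adjusted p = 0.00447) and the other read 0.41 (limma adjusted p = 0.147). Of wall structural proteins, HRGP1, a hydroxyproline-rich glycoprotein, rose by 1.33 (SE 0.33, limma adjusted p = 0.0262), and AT5G19800 by 0.42 (limma adjusted p = 0.0478). Each call ended without any 1 of 5 of the 6 arrays, the exception being mock replicate 3 for HRGP1 and mock replicate 2 for AT5G19800 (limma adjusted p up to 0.0934 and 0.166). HRGP1 also lost the call under trend and robust moderation, and AT5G19800 under median centring.

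Signal peptides of the RALF family, small secreted ligands of FERONIA-type receptor kinases, had 3 rises among 11 measured genes and no falls, with a median of 0.14. The rises made up 27.3%, against 4.07% of named probe sets. RALFL27 read 6.25, 5.98 and 6.47 in mock tips and 7.87, 7.65 and 8.0 at 10 h, a 3.05-fold rise (limma adjusted p = 0.000211). RALFL32 read 8.34, 8.39 and 8.23 against 9.22, 9.18 and 9.13, a 1.81-fold rise with the smallest adjusted p of the family (limma adjusted p = 0.000137). In both genes each group spread over far less than the gap between them. RALFL33 rose by 0.54 (limma adjusted p = 0.0353), and this call ended without any 1 of the 6 arrays (limma adjusted p up to 0.107) and under median centring. PSY1R, a peptide receptor gene picked after its value was seen, rose by 0.52 (limma adjusted p = 0.0408), a call that ended under median centring and when mock replicate 1 or 2 or 10 h replicate 2 or 3 was left out (limma adjusted p up to 0.171).

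Genes that mark dehydration, cold or abscisic acid responses were also among the rises. Of 6 measured, 4 rose and none fell, with a median of 0.81, and over all named probe sets 4.07% rose. The list was chosen with earlier results of these data known, so its count is a description. AT1G13930, which acts in salt tolerance, read 5.61, 6.01 and 6.39 in mock tips and 9.03, 8.99 and 9.12 at 10 h. Its 8.22-fold rise (3.04, SE 0.16, limma adjusted p = 3.29e-07) was the largest of any probe set tested. The dehydrin LTI30 rose by 1.07 (SE 0.13, limma adjusted p = 0.000302), and the dehydrin COR47, bright in mock tips at 10.25 to 10.32, rose by 0.72 (SE 0.12, limma adjusted p = 0.00303). AT4G30650, a small membrane protein gene of the low-temperature response family, rose by 0.89 (SE 0.14). The chloroplast cold-response genes COR15A and COR15B read -0.18 and 0.02 and were dim on all 6 arrays, with group means between 3.23 and 4.56.

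Of 15 clock-related genes listed, 3 had a named probe set, and all 3 rose, beside 4.07% of all named probe sets. AT4G33980 (COR28) rose by 0.69 (SE 0.11, limma adjusted p = 0.00172), COR27 by 0.60 (SE 0.11, limma adjusted p = 0.00386) and GI, the clock protein GIGANTEA, by 0.40 (SE 0.09, limma adjusted p = 0.0162). COR27 was dim, with means of 3.60 in mock tips and 4.19 at 10 h. The 10 h arrays of GI read 8.48, 8.37 and 8.35 and the mock arrays 7.87, 8.02 and 8.09, a narrow gap. Its call ended without mock replicate 1 or 10 h replicate 1 (limma adjusted p up to 0.0718). Collection was staggered so that ages matched, and the hour of day of each collection is not given in the sources used here, so its part in these values was not tested. PDC2, a pyruvate decarboxylase of fermentation, rose by 0.77 (SE 0.15, limma adjusted p = 0.00683) as the 1 measured gene of the low oxygen and ethanol list.

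Chlorophyll-binding and photosystem genes, listed to show green tissue, had 2 rises among 7 (28.6%, against 4.07% of named probe sets). LHCB4.1 read 5.30, 5.60 and 5.48 in mock tips and 6.06, 5.95 and 6.27 at 10 h, a rise of 0.63 (limma adjusted p = 0.00906), and PSBY rose by 0.53 (limma adjusted p = 0.0148). Neither passed without 10 h replicate 3, and PSBY also not without mock replicate 1 (limma adjusted p up to 0.0532 and 0.0789). The close relatives LHCB4.2 and LHCB4.3 read 0.13 and 0.18, not called. Of 69 plastid-encoded transcripts none rose and 1 fell (1.45%, below the 2.63% of named probe sets), with a median of -0.06. That was atpH, a subunit gene of the plastid ATP synthase, at 7.10, 6.90 and 7.18 against 6.63, 6.57 and 6.63, a fall of 0.45 (limma adjusted p = 0.0495). Its call ended without any single array other than mock replicate 2 (limma adjusted p up to 0.147).

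Genes of small-molecule metabolism rose in part. Of 51 UDP-glycosyltransferases, which attach sugars to small molecules, 7 rose (13.7%, against 4.07% of named probe sets) and 2 fell, with a median of 0.09. The share of falls, 3.92%, was near the 2.63% of named probe sets. UGT84A1, an enzyme that glucosylates hydroxycinnamic acids, read 5.39, 4.87 and 4.58 in mock tips and 7.15, 6.98 and 6.82 at 10 h, a 4.1-fold rise (limma adjusted p = 0.000763). GT72B1, which glucosylates monolignols and xenobiotics, rose by 1.04 (limma adjusted p = 0.0112) and UGT78D2, a flavonoid glucosyltransferase, by 1.02 (limma adjusted p = 0.0317). UGT84A1 and UGT78D2 shared their order of arrays, replicate 1 highest and replicate 3 lowest in all 4 groups of the series. UGT73B1 rose by 0.64 (limma adjusted p = 0.0135). The calls on GT72B1 and UGT73B1 ended without mock replicate 1 or 10 h replicate 3 (limma adjusted p up to 0.056 and 0.0721). That on UGT78D2 ended without any single array other than mock replicate 1 (up to 0.112) and under trend and robust moderation. Without mock replicate 1 or without 10 h replicate 3, 2 of the 51 were called higher, and without 10 h replicate 1 it was 3.

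HCT and CHIL, genes of the lignin and flavonoid routes chosen after their values were seen, rose by 0.56 (limma adjusted p = 0.00299) and 0.70 (limma adjusted p = 0.00653). CHIL read 11.24, 10.99 and 10.64 in mock tips and 11.50, 11.72 and 11.75 at 10 h, so that a bright gene rose further. Cytochromes P450 had 1 rise among 24, CYP71B34 at 0.80 (limma adjusted p = 0.000245), a share of 4.17% that is near the 4.07% of all named probe sets. CYP71B34 was dim, with means of 3.06 in mock tips and 3.86 at 10 h. Among 13 glutathione transferases, 1 rose and 1 fell (7.69% each, against 4.07% and 2.63% of named probe sets). These were GSTU28 at 1.39 (limma adjusted p = 0.0166) and ATGSTF13 at -0.55 (limma adjusted p = 0.028). Both of these calls ended without mock replicate 1, 10 h replicate 1 or 10 h replicate 3, and that on ATGSTF13 also without 10 h replicate 2 (limma adjusted p up to 0.0791 for GSTU28 and 0.116 for ATGSTF13). GSTU28 also lost it under trend and robust moderation. The methionine sulfoxide reductases MSRB5 and MSRB6, also chosen after their values were seen, rose by 0.75 (limma adjusted p = 0.00101) and 0.69 (limma adjusted p = 0.00137). The defensin-like genes LCR69 and LCR68, chosen in the same way, rose by 1.22 and 0.88 (limma adjusted p = 0.00141 and 0.00134).

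Transcription factors among the rises included tny (TINY) and LEP (LEAFY PETIOLE), both of the ERF/AP2 family and both chosen after their values were seen. LEP read 6.37, 6.38 and 6.55 in mock tips and 8.09, 8.14 and 8.23 at 10 h, a 3.3-fold rise (limma adjusted p = 0.000738). Both groups of LEP were tight. The values of tny were 4.36, 4.33 and 4.75 against 6.41, 6.17 and 6.21, a 3.45-fold rise (limma adjusted p = 0.000729). UPB1, a bHLH factor that sets the balance of reactive oxygen at the transition zone and restrains peroxidase genes, rose by 0.79 (SE 0.21, limma adjusted p = 0.0315). It was the 1 call among 5 stem cell niche and meristem genes (20%, against 4.07% of named probe sets). WRKY53, a senescence and defence factor, rose by 0.92 (SE 0.25, limma adjusted p = 0.0369). It was the 1 call among 7 WRKY genes (14.3%). Both calls ended under trend and robust moderation and without mock replicate 1 or 2 or 10 h replicate 1 or 3, and that on UPB1 also without 10 h replicate 2 (limma adjusted p up to 0.134 for UPB1 and 0.163 for WRKY53). WRKY53 also lost its call in the fit to only the mock and 10 h arrays (limma adjusted p = 0.0686).

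The remaining large rises with a gene name belonged to varied families. AT3G23090, the microtubule-associated protein WDL3, read 4.00, 3.77 and 3.96 in mock tips and 6.29, 5.92 and 6.78 at 10 h, a 5.34-fold rise. AT2G23910, a reductase of the cinnamoyl-CoA reductase type, read 7.77, 7.01 and 6.20 against 9.34, 9.41 and 9.40, a 5.24-fold rise. Its mock arrays spread over more than 1.5 log2 units while its 10 h arrays lay within 0.1, and the groups did not overlap. AT2G47540, of the Ole e 1 and extensin family, rose 4.78-fold, AT4G22460, of the lipid transfer protein family, 4.72-fold, and AT1G19900, a galactose oxidase, 4.04-fold. AT5G57785 (2.35), AT2G34910 (1.96) and AT2G45750, a methyltransferase (1.89), completed the largest named rises. Of probe sets without a gene name here, 250778_at rose by 2.94 and 262947_at by 2.80.

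Genes of ribosome production were among the falls. The list, put together after some of its members had been seen, had 20 measured genes, of which 10 fell and none rose, with a median of -0.35. Over all named probe sets 2.63% fell. The difference was below 0 for 19 of the 20, whereas 46.7% of all probe sets were above 0. In 17 all 10 h arrays lay below all mock arrays, which 14.4% of all probe sets did. Without the 5 members seen earlier, 5 of 15 fell, and the median was -0.31. IMP4, of the small subunit processome, read 9.90, 9.84 and 9.72 in mock tips and 9.34, 9.20 and 9.37 at 10 h. It fell by 0.52 (SE 0.09, limma adjusted p = 0.00285), with a gap wider than the range of either group.

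AT5G54910, a DEAD-box RNA helicase, had the largest fall of the list at 0.69 (SE 0.16, limma adjusted p = 0.0147). AT3G15460, the large subunit assembly factor BRX1, fell by 0.51 (limma adjusted p = 0.0279). NRPA1 and NRPA2, the largest subunits of RNA polymerase I, which transcribes ribosomal RNA, fell by 0.44 (limma adjusted p = 0.0257) and 0.38 (limma adjusted p = 0.0121). NRPA2 read 9.41, 9.44 and 9.30 in mock tips and 9.03, 9.01 and 8.98 at 10 h, small but well separated groups. YAO, a nucleolar protein, fell by 0.39 (limma adjusted p = 0.0212). The falls were small: 1 of the 10 passed a 1.5-fold minimum. Leaving out mock replicate 1 or 10 h replicate 3 gave a count of 3, leaving out 10 h replicate 2 gave 4, and leaving out mock replicate 2 gave 6. It rose to 15 with the filter on dim probe sets. Of the genes named, AT5G54910, AT3G15460, NRPA1 and YAO lost the call without mock replicate 1 or 10 h replicate 3 (limma adjusted p up to 0.0789, 0.115, 0.101 and 0.101) and NRPA2 without 10 h replicate 3 (0.0553). NRPA1, YAO and AT3G15460 also lost it without 10 h replicate 2, NRPA1 and AT3G15460 without 10 h replicate 1, and NRPA1 and YAO without mock replicate 2.

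Cytosolic ribosomal proteins, listed by locus after the files had been read, had small differences, most of them below 0. Of 131 measured, 5 fell and none rose, and the 3.82% that fell is near the 2.63% of named probe sets. The median was -0.09, with 119 of 131 below 0, whereas 46.7% of all probe sets were above 0. In 48 all 10 h arrays lay below all mock arrays, as they did in 14.4% of all probe sets. AT5G39850 (small subunit protein S9) fell by 0.64 (SE 0.11, limma adjusted p = 0.00304), AT5G59240 (S8) by 0.57 (SE 0.09, limma adjusted p = 0.00168), AT2G32220 (large subunit protein L27) by 0.50 and AT1G15250 (L37) by 0.43. AT5G59240 read 9.83, 9.83 and 9.73 in mock tips and 9.11, 9.31 and 9.26 at 10 h, with no overlap. Several of these proteins have near-identical gene copies, whose signals a probe set can share. With trend and robust moderation 18 of the 131 fell, and without single arrays between 3 and 8. The call on AT2G32220 ended without mock replicate 1 or any 1 of the 10 h arrays (limma adjusted p up to 0.109).

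Histones, looked up by locus after the files had been read, had 4 falls and no rises among 12 measured genes, a share of 33.3% beside 2.63% of named probe sets, with a median of -0.22. HTR12, the centromeric histone CENH3, read 7.90, 7.88 and 7.85 in mock tips and 7.54, 7.23 and 7.29 at 10 h, a fall of 0.52 (SE 0.11, limma adjusted p = 0.0131). The H2B genes HTB1, HTB2 and AT2G37470 fell by 0.38, 0.32 and 0.38, with limma adjusted p = 0.0213, 0.0441 and 0.019. HTB1 lay at 11.03, 11.08 and 10.90 against 10.58, 10.59 and 10.69, so the fall was small in a bright gene. None of the 4 passed a 1.5-fold minimum, and without 10 h replicate 2 none was called. Leaving out mock replicate 1 or 10 h replicate 3 left 1 fall, leaving out 10 h replicate 1 or mock replicate 2 left 2, and the call on HTB2 also ended under median centring and with the 6 arrays alone (limma adjusted p up to 0.077).

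Cell cycle genes had values below 0 that did not pass. All 4 measured G2 and mitosis genes were below 0, from -0.27 for the checkpoint gene BUB3.1 (limma adjusted p = 0.0651) to -0.11 for the Aurora kinase AUR1. Over all probe sets, 46.7% were above 0, so few genes on 1 side are a description only. The replication genes PRL, an MCM helicase subunit, and ICU2, the DNA polymerase alpha subunit, read -0.29 (limma adjusted p = 0.0789) and -0.27 (limma adjusted p = 0.287). KINESIN-12B, a phragmoplast kinesin chosen after its value was seen, fell by 0.39 (limma adjusted p = 0.0431), a call that ended with the replicate number as a block (limma adjusted p = 0.0507) and without any single array other than mock replicate 2 (up to 0.151). IQD26, a calmodulin-binding protein gene chosen in the same way, read 8.02, 8.07 and 8.18 in mock tips and 7.43, 7.29 and 7.33 at 10 h. It fell by 0.74 (SE 0.10, limma adjusted p = 0.000453), and each of its groups spread over less than 0.2.

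**Figure D3:**
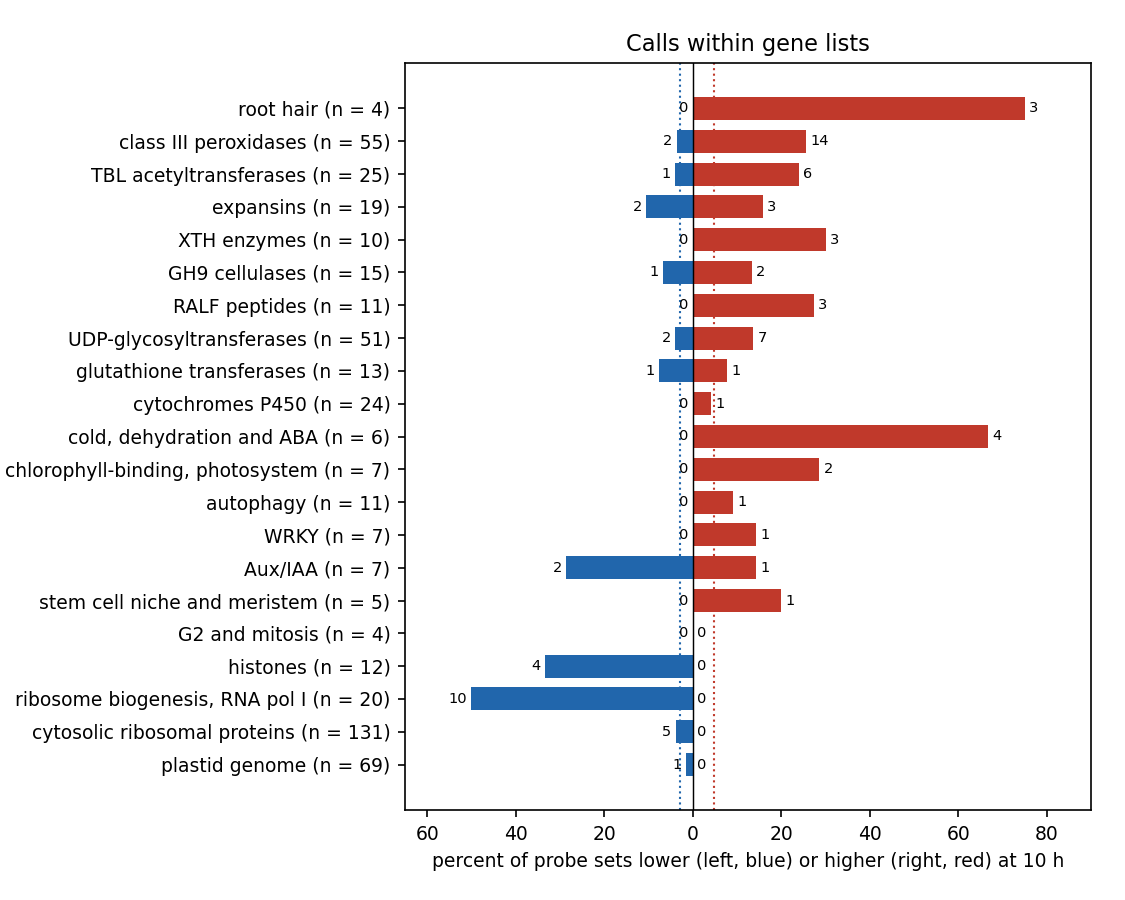
For each gene list (y axis, n is its number of measured probe sets), bars give the percent called higher (right, red) and lower (left, blue) at 10 h, with the number of calls at the end of each bar. Dotted lines mark 4.7% higher and 2.79% lower over all probe sets. The lists hold named probe sets only, of which 4.07% were higher and 2.63% lower. Root hair, dehydration and peroxidase bars extend to the right, and the ribosome biogenesis bar reaches 50% to the left.

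The largest named falls were in single genes of metabolism and secretion. AT1G23160, of the GH3 family, read 8.13, 8.30 and 7.83 in mock tips and 6.46, 6.67 and 6.37 at 10 h, a 2.99-fold lower signal (SE 0.14 on the log2 scale, limma adjusted p = 3.52e-05). AT4G11190, a dirigent family gene, read 9.12, 8.77 and 8.91 against 7.31, 7.38 and 7.64, a 2.81-fold lower signal (limma adjusted p = 6.74e-05). In both genes more than 1 log2 unit separated the groups. AT5G15950, an S-adenosylmethionine decarboxylase of polyamine synthesis, read 8.55, 8.37 and 8.35 in mock tips and 7.31, 7.22 and 6.6 at 10 h, a fall of 1.38 (SE 0.18, limma adjusted p = 0.000453). Its 10 h replicate 3 was the lowest array, and the call held without it.

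AT5G04120, of the phosphoglycerate mutase family, was steady in mock tips at 7.33, 7.27 and 7.31 and read 6.08, 5.75 and 6.14 at 10 h. It fell by 1.32 (SE 0.33, limma adjusted p = 0.0248), and this call ended without any 1 of the 6 arrays (limma adjusted p up to 0.0975) and under trend and robust moderation. AT3G22060, of the DUF26 secreted protein family, fell by 1.16 (SE 0.12, limma adjusted p = 7.93e-05), AT5G18840, a sugar transporter family gene, by 1.14 (SE 0.16), and hemb2, a delta-aminolevulinic acid dehydratase gene of tetrapyrrole synthesis, by 1.03 (SE 0.16). ASPGB1, an asparaginase gene chosen after its value was seen, fell by 0.70 (SE 0.15, limma adjusted p = 0.0105). The remaining largest named falls lay between -0.94 and -0.82, and among them were AT1G66800, a reductase family gene, AT1G62500, of the lipid transfer protein family, AT5G23840, a lipid recognition protein gene, AT4G23680, of the major latex protein family, and AT5G02580, AT3G56810 and AT3G42800. Of probe sets without a gene name here, 245947_at fell by 2.23 and 261569_at by 1.75.

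**Figure D4:**
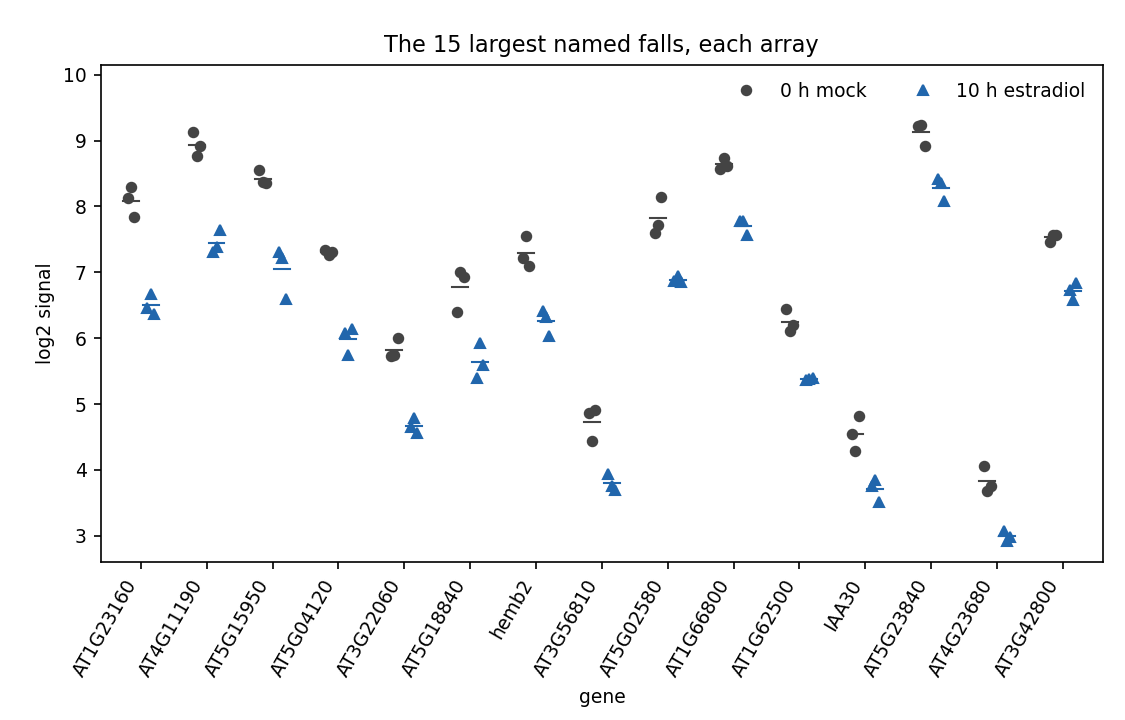
Log2 signal (y axis) of the 15 largest named falls (x axis), with 1 point per array, grey circles for 0 h mock, blue triangles for 10 h and a line at each group's mean. The 15 genes were chosen so that the 3 triangles lie below the 3 circles. Differences run from -1.58 for AT1G23160 to -0.82 for AT3G42800. Heights of different genes are not comparable.

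Auxin genes were split. Of 7 Aux/IAA genes, repressors of the auxin response, 2 fell (28.6%, against 2.63% of named probe sets) and 1 rose (14.3%, against 4.07%). IAA30 read 4.55, 4.29 and 4.82 in mock tips and 3.75, 3.85 and 3.52 at 10 h, a fall of 0.84 (SE 0.13, limma adjusted p = 0.00161). IAA20 fell by 0.43 (SE 0.09, limma adjusted p = 0.011), and this call ended without 10 h replicate 3 (limma adjusted p = 0.0628). IAA18 rose by 0.44 (SE 0.10, limma adjusted p = 0.0154), and this call ended without replicate 1 of either group, mock replicate 2 or 10 h replicate 3 (limma adjusted p up to 0.0658). None of the 5 GH3 genes named as such, 3 SAUR genes or 2 type-A response regulators was called. GH3.1, an auxin-conjugating enzyme gene, read 0.43 (limma adjusted p = 0.0578), and the cytokinin response regulator ARR15 read -0.20 (limma adjusted p = 0.216).

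Markers of the inner tissues were few. In the stele, the domain of the driving promoter, none of 3 measured genes passed: AT2G28510, a DOF factor, read 0.33 (limma adjusted p = 0.0686), the receptor kinase MOL1 0.09 and the bHLH factor LHW -0.15. The phloem gene OPS read 0.09 (limma adjusted p = 0.637). GSO1, the receptor kinase that guards the Casparian strip and the 1 endodermal gene measured, read 5.47, 5.81 and 5.95 in mock tips and 6.62, 6.21 and 6.64 at 10 h. It rose by 0.75 (SE 0.17, limma adjusted p = 0.0147), and the call ended without mock replicate 1, 10 h replicate 1 or 10 h replicate 3 (limma adjusted p up to 0.0732). Of 2 xylem genes, both peroxidases, AT5G51890 (PER66) read 0.73, with limma adjusted p of 0.05 that did not pass. ATG8E, an autophagosome protein chosen after its value was seen, rose by 1.15 (SE 0.29, limma adjusted p = 0.0288). It was the 1 call among 11 autophagy genes (9.09%, against 4.07% of named probe sets). Its mock arrays spread from 3.45 to 4.73, just under its lowest 10 h array at 4.76, and the call ended under trend and robust moderation and without mock replicate 1 or 2 or 10 h replicate 2 or 3 (limma adjusted p up to 0.134).

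Single members of 6 further small lists gave little. The pectin methylesterase gene PMEPCRF rose by 0.34 (limma adjusted p = 0.0443), a call that ended under median centring and with only the 6 arrays, among other settings, and without any single array other than mock replicate 2 (limma adjusted p up to 0.175). LAC16, a laccase gene, read 0.16, and the bHLH genes BHLH101 and ILR3, both of the iron response, read 0.32 (limma adjusted p = 0.0685) and -0.09. NAC014, a NAC factor gene, read -0.05, AT1G77750, a ribosomal protein gene, -0.15, and AQI, matched to the aquaporin list by its description, 0.04. All of these other than PMEPCRF were uncalled.

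The values at 10 h can be set beside those at the other times, each against the same 3 mock arrays. The root hair list had a mean of 1.39, 1.56 and 1.69 above the mock mean on the 10 h arrays, between -0.02 and 0.17 on the 6 h arrays, and -0.06, 0.28 and 0.95 on the 24 h arrays. The 24 h arrays spread widely, and none reached the 10 h arrays. The dehydration list lay 0.60 to 0.92 above the mock mean at 6 h, 0.87 to 0.99 at 10 h and 0.31 to 0.33 at 24 h. AT1G13930 weighs heavily in this mean of 6 genes, at 2.17, 3.04 and 1.31 above its own mock mean. Ribosome production genes lay 0.19 to 0.32 below the mock mean at 6 h, 0.29 to 0.39 below at 10 h and between -0.14 and 0.02 at 24 h. Their 6 h and 10 h arrays overlapped.

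**Figure D5:**
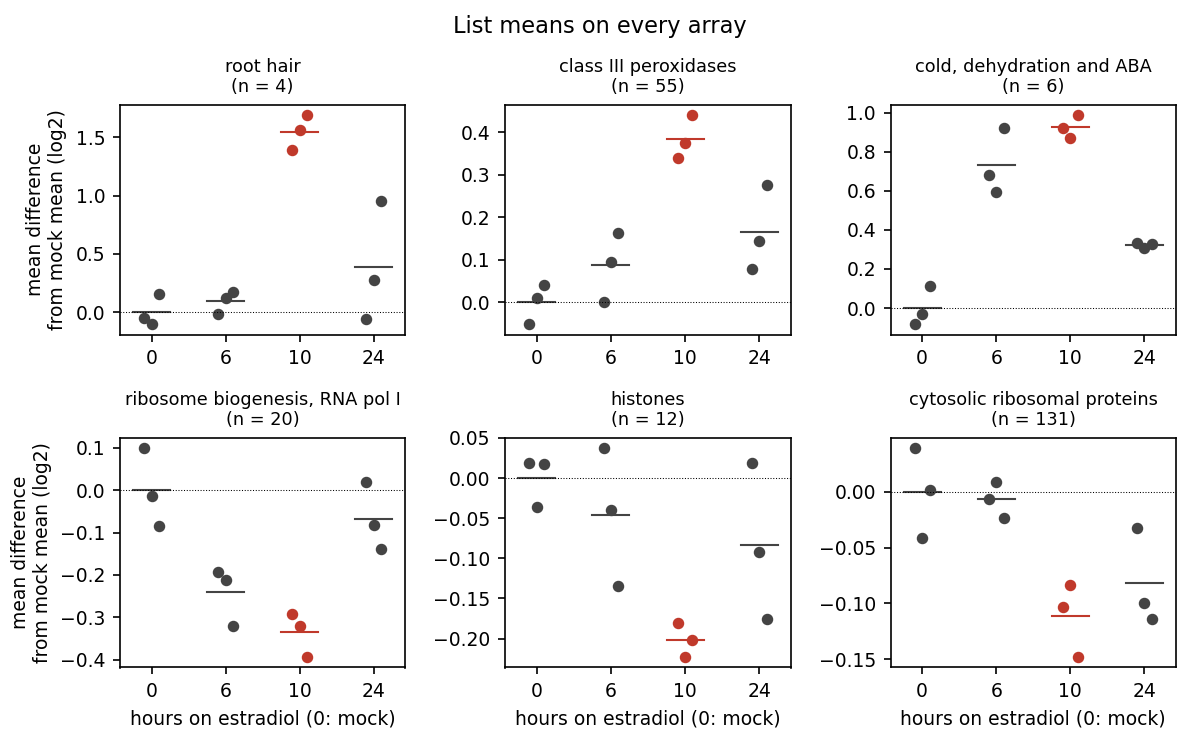
Mean difference of each list's measured probe sets from their mock mean (y axis, log2) on each of the 12 arrays, by hours on ß-estradiol (x axis, 0 is mock), with a line at each group's mean and the 10 h arrays in red. Root hair genes stand highest on the 10 h arrays at 1.39 to 1.69, dehydration genes are raised from 6 h, and ribosome biogenesis genes are lowest at 10 h at -0.39 to -0.29. The y scales differ between panels.

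Tested directly, 10 h against 6 h had 267 probe sets higher (1.17%) and 16 lower (0.0703%), and 24 h against 10 h had 165 higher (0.725%) and 242 lower (1.06%). The named genes were chosen on the 10 h arrays, which enter both of these tests, so the choice itself favours differences away from the 10 h level, and the counts over them are a description. Of the 64 named genes and probe sets that rose at 10 h, 30 were higher at 10 h than at 6 h, and 21 were lower at 24 h than at 10 h. AT1G30870 was 2.57 higher at 10 h than at 6 h (limma adjusted p = 0.000992) and lower by 2.13 at 24 h (limma adjusted p = 0.00182). EXPA7, EXPA18, AT3G49960 and AT4G26010 also passed both tests. LTI30 differed by -0.02 between 10 h and 6 h (limma adjusted p = 0.974), having risen by 1.09 at 6 h, and fell by 0.76 from 10 h to 24 h (limma adjusted p = 0.00932).

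Of the 42 that fell at 10 h, 1 was lower at 10 h than at 6 h, which was 245947_at, and 1 was higher, EXLA2. From 10 h to 24 h, 12 rose and 1 fell. AT4G11190 stood at -1.93 against mock at 6 h, -1.49 at 10 h and 0.35 at 24 h, and rose by 1.85 from 10 h to 24 h (limma adjusted p = 3.07e-05). AT5G15950 followed with -1.26, -1.38 and 0.44, a rise of 1.82 from 10 h to 24 h (limma adjusted p = 0.000162). PHV did not pass in either test, at -0.21 for 10 h minus 6 h (limma adjusted p = 0.447) and 0.11 for 24 h minus 10 h (limma adjusted p = 0.659). Against mock, PHV read -0.315 at 6 h (limma adjusted p = 0.28) and -0.41 at 24 h (limma adjusted p = 0.0884), and neither passed. IAA30 read -0.72, -0.84 and -0.84 against mock at 6 h, 10 h and 24 h.

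Called genes were spread over the genome. On chromosomes 1 to 5, between 3.58% and 4.57% of named probe sets were higher and between 1.86% and 3.68% lower. The median length of the annotated gene was 2042.5 bp for genes higher and 2355 bp for genes lower, against 2118 bp for all 13415 named nuclear probe sets.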

How the data were processed

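Affymetrix ATH1 arrays were hybridised with biotin-labelled RNA, 250 ng per sample, per the labels' protocols. The authors deposited log2 values made with Affymetrix Expression Console and RMA, with limma named too, per the submitters' processing notes, whose versions are not given in the sources used here. RMA subtracts a background, gives arrays a common distribution and combines probes, which compresses low signals. The values were used as deposited, without further scaling.

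Of 22810 probe sets, 64 controls were left out. GEO's platform annotation gave 13513 a single gene name, 503 several and 8730 none, and 13484 of the names matched a RefSeq table of assembly TAIR10.1. No probe set with several names is named, and no coordinates are given, since the values carry no genome build. Many well-known genes thus have no named probe set here. Different probe sets of 1 gene were kept apart.

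Under R 4.3.3, limma 3.58.1 fitted a linear model with 4 group means to all 12 arrays and moderated the variances, and the 10 h minus 0 h contrast was adjusted by the Benjamini-Hochberg method over 22746 probe sets at 0.05. A fold is 2 to the difference of mean log2 values. SDs are between 3 arrays, and the arrays' number limits the precision. Run on simulated data with 67, 67 and 66 probe sets changed by 0.5, 1 and 2, the fit made 8 false calls among the unchanged ones. Far fewer probe sets were changed there than were called in the data, so the 8 is not the number of false calls reported here. Alternatives were other scalings, a filter keeping probe sets with a mean of at least 5, trend and robust moderation, array weights, a replicate block, a 1.5-fold minimum, the 6 arrays alone and the omission of single arrays.

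The members and gene lists were chosen with earlier results of these data known. Named were HD-ZIP III genes, the 15 largest named rises and falls with arrays that do not overlap, up to 4 called members of each list or else up to 2 with the smallest p, and up to 2 unnamed probe sets in each direction. The peroxidase, ribosomal protein, ribosome biogenesis, histone and autophagy lists and 18 genes were added after the values were seen, and members of a list named beyond 4 were chosen then too. Lists are described by counts and medians without a test. LITTLE ZIPPER, root cap, arabinogalactan, MYB, receptor kinase, heat shock, nutrient uptake and mitochondrial genome lists had no named probe set. Sequences were not used.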

Additional observations from a re-analysis of the deposited data

Results flagged for a closer look

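The results here are the named genes whose level at 10 h differed from that at 6 h or at 24 h by limma's test of that difference, adjusted over all 22746 probe sets, with 3 arrays at each time. There were 66 such tests, 32 for 10 h minus 6 h and 34 for 24 h minus 10 h. Values are differences of mean log2 signal, and the tests against 6 h and against 24 h share the 10 h arrays, on which the genes were also chosen. Groups of 3 arrays are too small for the test of single stray samples.

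Among the root hair genes and peroxidases, 10 h minus 6 h was 2.57 for AT1G30870, 1.75 for EXPA7, 1.31 for EXPA18, 1.84 for AT3G49960, 1.68 for AT4G26010, 1.63 for AT5G17820, 1.08 for AT5G66390 and 1.44 for the kinase gene AT2G41970. From 10 h to 24 h the values were -2.13 for AT1G30870, -1.43 for EXPA7, -1.03 for EXPA18, -1.40 for AT3G49960, -1.70 for AT4G26010 and -1.17 for AT2G41970.

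Other wall and signal genes gave 10 h minus 6 h values of 1.91 for GH9C1, 0.91 for XTH18, 1.34 for TBL38, 1.09 for TBL21, 0.59 for TBL19, 1.02 for RALFL27, 1.59 for AT2G47540, 1.97 for AT1G19900 and 0.53 for EXLA2. The values of 24 h minus 10 h were -0.61 for TBL19, -0.48 for RALFL32, -1.33 for AT1G19900 and 0.67 for EXLA2. EXLA2 thus differed upward at both steps, from its low level at 6 h.

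Metabolic and redox genes gave 10 h minus 6 h values of 1.45 for UGT84A1, 1.24 for GT72B1, 1.46 for GSTU28, 0.64 for CYP71B34, 0.51 for HCT and 0.61 for MSRB5. For 24 h minus 10 h CYP71B34 gave -0.46 and MSRB5 -0.51.

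The dehydration and clock genes stood out mostly at the later step. From 10 h to 24 h the values were -1.73 for AT1G13930, -0.76 for LTI30, -0.72 for AT4G30650, -0.54 for COR47, -0.59 for COR27, -0.72 for AT4G33980 and -0.67 for LHCB4.1. AT1G13930 was also 0.87 higher at 10 h than at 6 h.

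The factors tny and LEP were each 1.13 higher at 10 h than at 6 h, and WRKY53 gave -1.12 from 10 h to 24 h. Of the other rises, 10 h minus 6 h was 2.13 for AT3G23090, 0.86 for AT5G57785, 1.62 for AT2G45750, 1.18 for AT2G34910 and 2.68 for 250778_at. From 10 h to 24 h, AT2G34910 gave -0.89 and 250778_at -2.12.

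Of the 42 named genes and probe sets that were lower at 10 h than in mock tips, 29 passed neither test. Besides EXLA2, given above, those with positive values past the threshold from 10 h to 24 h were 1.85 for AT4G11190, 1.82 for AT5G15950, 1.71 for 261569_at, 0.90 for AT5G18840, 0.72 for AT1G23160, 0.68 for AT1G62500, 0.64 for AT3G22060, 0.66 for AT5G39850, 0.56 for AT5G59240, 0.46 for YAO and 0.36 for NRPA2. In the other direction, 245947_at gave -1.59 from 6 h to 10 h and a further -1.09 from 10 h to 24 h.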

How the results depend on the processing

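The number of calls at 10 h, 1705 as reported, ranged from 875 to 1420 when single arrays were left out, with 615 to 978 higher and 254 to 442 lower. Mock replicate 1 left out gave 980, and 10 h replicates 1, 2 and 3 left out gave 1042, 1045 and 875. Fewer arrays leave less power, and no other cause was tested. A 1.5-fold minimum left 699 calls, 607 higher and 92 lower, by its construction. Array weights gave 956 lower. Other scalings, the dim filter, trend and robust moderation and the fit to 6 arrays gave 1753 to 2049 calls, and 1456 to 1610 of the reported calls were shared. PHV stayed past the threshold in the 13 alternatives that refit it, with limma adjusted p up to 0.0349 and differences from -0.60 to -0.47. Deviations of same-numbered mock and 10 h arrays correlated at -0.008 to 0.156, and those of different numbers at -0.163 to 0.143. Over all 4 groups the ranges were -0.104 to 0.279 and -0.258 to 0.157. In every group the mean of the peroxidase list by locus rose from replicate 1 to replicate 3, and that of the ribosome biogenesis list fell. On the 10 h arrays these means stood at 0.34, 0.37 and 0.44 and at -0.29, -0.32 and -0.39 from the mock mean. The root hair, dehydration and histone means did not keep 1 order in every group. Whether arrays of the same replicate number share a batch was not tested. With the replicate number as a block there were 1870 calls, 1183 higher and 687 lower. Of 105 named genes and probe sets called, besides PHV, 70 were called in every refit that gave them a value; the 1.5-fold minimum was applied to counts only and is not among these refits. The other 35 lost the call without at least 1 array, and 14 of these also under another setting, while none changed sign. Of uncalled genes, AQI ranged from -0.02 to 0.109 and NAC014 from -0.123 to 0.026 when single arrays were left out, AQI turning without mock replicate 1 and NAC014 without mock replicate 3. On simulated data limma recovered 71.6% of 67 probe sets changed by 0.5 and all 67 changed by 1, so smaller differences than these can be missed. Far fewer probe sets were changed there than were called in the data, so these shares need not hold for the data.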
